A study of Mus musculus with 8 samples.

Results

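The genes described here are 9 islet genes of signalling to and from the insulin-secreting beta cell. They are the receptor genes Glp1r, Gipr, Gcgr, Ffar1, Chrm3, Adra2a, Sstr3 and Galr1, for signals such as those of gut hormones, nerves and neighbouring cells, and Ucn3. Ucn3 encodes a secreted peptide, urocortin 3, and not a receptor. Members were all probe sets whose platform annotation names 1 of these genes. This gave 10 probe sets of 7 genes, out of 45037 probe sets in all. Ffar1 and Adra2a were not analysed here. The RNA came from pancreatic islets of 2 inbred mouse strains, AKR/J and C57Bl/6J, that had both been on a high-fat diet for 3 months. Each strain had 4 RNA samples on 4 Affymetrix mouse arrays, with numbers 1 to 4 in AKR/J, then 5 to 8 in C57Bl/6J. Each sample pooled islets of 2 mice, and the tests therefore measure spread between pools, not between single mice. Both strains ate the high-fat diet, so strain is the one factor compared, and another diet was not analysed here.

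GLP-1 and GIP are the incretins, gut hormones released after a meal. Their receptors and the glucagon receptor couple to the G protein Gs, raise cAMP in beta cells and so amplify glucose-stimulated insulin secretion. Acetylcholine from parasympathetic nerves acts on the muscarinic M3 receptor, which couples to Gq and releases calcium from stores. Somatostatin and galanin act on Gi-coupled receptors that lower cAMP and restrain secretion, and urocortin 3 from beta cells stimulates delta cells to release somatostatin.

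Between 43.7% and 48.1% of probe sets were detected per array, and with 4 arrays per strain their number limits the precision. Among cell type markers, 6 of 6 tested beta cell markers were detected on all 8 arrays, and their summed intensity was 82601 to 85521 in AKR/J, against 80474 to 84588 in C57Bl/6J. Of these 6, Slc2a2 (-0.56; limma adjusted p = 0.0132) and G6pc2 (-0.23; limma adjusted p = 0.0452) were lower in AKR/J, and the other 4 did not pass. The alpha cell sum (3 genes, with glucagon) was 37985 to 45353 in AKR/J, against 40622 to 42838 in C57Bl/6J, and the delta cell sum (3 genes, with somatostatin) was 17500 to 21205 in AKR/J, against 16170 to 19415 in C57Bl/6J, with 0 of 3 markers passing in each. These sums are mostly glucagon (Gcg) and somatostatin (Sst), the brightest genes of their lists. The log2 differences were 0.01 for Gcg, -0.39 for Irx1 and -0.46 for Irx2, and 0.06 for Sst, 0.07 for Hhex and 0.21 for Rbp4. Ppy, the pancreatic polypeptide gene of PP cells, was higher in AKR/J (0.89; limma adjusted p = 0.0297), with intensities of 21614 to 29232 in AKR/J, against 9801 to 20054 in C57Bl/6J. Preparations also held acinar tissue, with 7 of 7 tested markers lower in AKR/J and sums of 107755 to 122989 in AKR/J, against 175778 to 182169 in C57Bl/6J. Of 5 tested macrophage markers 4 were lower in AKR/J, with sums of 989 to 1282 in AKR/J, against 2202 to 3116 in C57Bl/6J. Of 3 tested endothelial markers Cdh5 was higher in AKR/J (0.69; limma adjusted p = 0.00550). Fabp4, the only fat marker tested, was lower (-0.45; limma adjusted p = 0.0261). Adipoq, the other fat marker with a probe set, was detected on 1 C57Bl/6J array alone and was not tested, so the fat reading rests on Fabp4. Of 3 duct markers with a probe set, Krt19 was detected on 1 AKR/J and 2 C57Bl/6J arrays, and Sox9 and Cftr on none. The Schwann cell marker Sox10 was not detected on any array. S100b, listed with it, was detected on 3 of 4 arrays in each strain and did not pass (0.02; limma adjusted p = 0.818). In whole islets, fewer cells of a type and less RNA per cell cannot be told apart, and the part of these cell type differences in the results below was not tested.

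Values are log2 GCRMA intensities, a background-corrected and normalized scale on which 1 unit is a doubling. A probe set counted as detected on an array where its detection p was under 0.05, and 9 of the 10 probe sets, covering the 7 genes, were detected on at least 4 arrays and entered the fit of all 20772 such probe sets. At an adjusted p under 0.05, 1 of these 9 was higher in AKR/J and 3 of 9 lower, where 6.59% of all tested probe sets were higher and 7.7% were lower (14.3% in either direction). By the brightest probe set of each gene, 3 of 7 genes were called, Gcgr, Ucn3 and Galr1, against 17.6% of 10891 genes (924 or 8.48% higher and 995 or 9.14% lower; 1008 higher and 681 lower with each array centred on 6 beta cell markers). The arrays of AKR/J and C57Bl/6J did not overlap for 6 of the 9 probe sets, against 22.9% of all tested, and for 5 of the 7 genes, against 25.1% of all genes. On the MAS5-type signal as deposited, described below, 3 of the 9 did not overlap, and the share over all probe sets was not computed there. The median log2 difference of the 7 genes, AKR/J minus C57Bl/6J, was -0.27, and that of all tested genes was 0.00012.

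**Figure D1:**
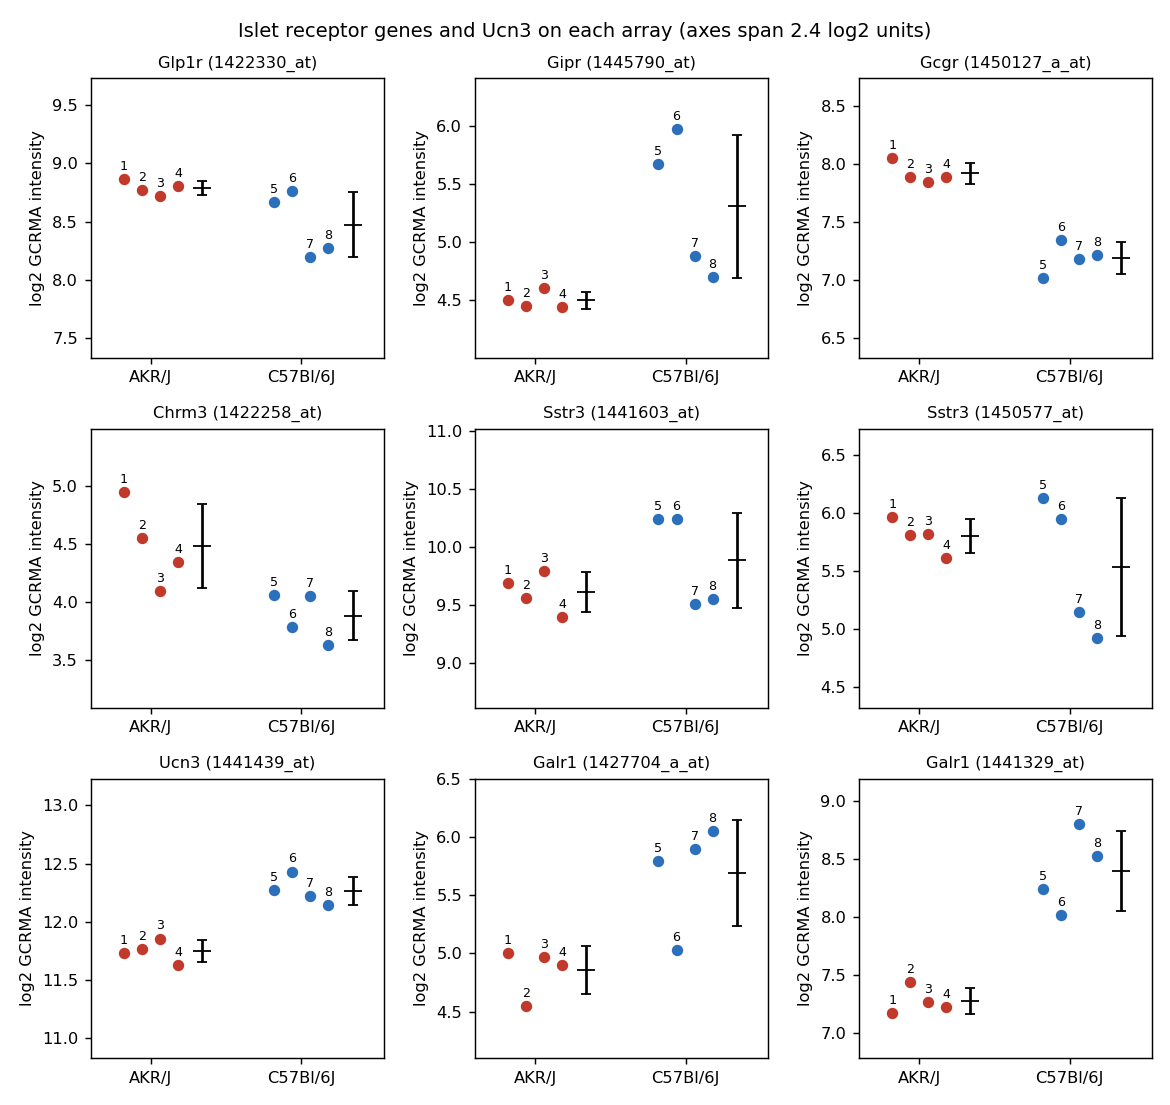
Log2 GCRMA intensity of the 9 tested probe sets on each array, AKR/J (red, arrays 1 to 4) left of C57Bl/6J (blue, arrays 5 to 8), with the strain mean and SD as a black bar (n = 4 each). Gcgr lies higher in AKR/J and Ucn3 and Galr1 lie lower on every array, while arrays 7 and 8 stand apart from arrays 5 and 6 for Glp1r, Gipr and Sstr3.

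The glucagon receptor was the one Gs-coupled receptor of the 3 that differed between strains by the test. Gcgr (probe set 1450127_a_at) was at 8.05, 7.89, 7.84 and 7.89 in AKR/J, against 7.01, 7.35, 7.18 and 7.22 in C57Bl/6J. Every AKR/J array lay above every C57Bl/6J array, and no array of either strain stood far from the others. The means were 7.92 ± 0.09 on AKR/J arrays and 7.19 ± 0.14 on C57Bl/6J arrays (SD, n = 4 each), a log2 difference of 0.73 with a 95% interval of 0.52 to 0.93, or 1.66-fold (limma adjusted p = 0.00140). The strains were also apart on the separately computed MAS5-type signal, whose levels are given as deposited and whose log2 differences follow quantile normalization, at 243 ± 8.84 on AKR/J arrays and 135 ± 34.6 on C57Bl/6J arrays (SD, n = 4 each), with a log2 difference of 0.90 (limma adjusted p = 0.0108). With arrays 1, 2, 5 and 6 alone the difference was 0.79 and with arrays 3, 4, 7 and 8 alone it was 0.66, neither passing with 2 arrays per strain (limma adjusted p = 0.0797 and 0.0637).

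Glp1r (1422330_at), the receptor that GLP-1 drugs act on, was detected on all 8 arrays. It was at 8.86, 8.77, 8.72 and 8.80 in AKR/J, against 8.67, 8.76, 8.20 and 8.27 in C57Bl/6J. Arrays 7 and 8 were low, and array 6 reached the level of AKR/J, so the strains overlapped. The means were 8.79 ± 0.06 on AKR/J arrays and 8.47 ± 0.28 on C57Bl/6J arrays (SD, n = 4 each), and the difference of 0.31 did not pass (95% interval 0.0047 to 0.62; limma adjusted p = 0.161). It was 0.10 with arrays 1, 2, 5 and 6 alone and 0.53 with arrays 3, 4, 7 and 8 alone. On the MAS5-type signal the difference was 0.22 (95% interval -0.08 to 0.53; limma adjusted p = 0.330).

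The GIP receptor gene Gipr (1445790_at) gave a dim signal whose reading depended on the array and on the summary method. It was at 4.50, 4.45, 4.60 and 4.44 in AKR/J, against 5.67, 5.97, 4.88 and 4.70 in C57Bl/6J. The strains did not overlap, but arrays 5 and 6 stood about a unit above arrays 7 and 8. The mean was 4.50 ± 0.07 on AKR/J arrays and 5.31 ± 0.61 on C57Bl/6J arrays (SD, n = 4 each), a difference of -0.81 that did not pass (95% interval -1.43 to -0.19; limma adjusted p = 0.0866). Without array 8, the lowest of C57Bl/6J, it passed (-1.01, limma adjusted p = 0.0384), but not without any other array (limma adjusted p up to 0.185). It passed with arrays 1, 2, 5 and 6 alone (-1.35, limma adjusted p = 0.0350) and not with arrays 3, 4, 7 and 8 alone (-0.27, limma adjusted p = 0.360). This division was known from earlier results of these data. For Gipr it parts the higher arrays 5 and 6 from arrays 7 and 8, so that pass adds no support. On the MAS5-type signal Gipr was at 168, 150, 159 and 93.1 in AKR/J, against 156, 197, 167 and 96.1 in C57Bl/6J. These ranges overlapped almost fully, and the log2 difference there was -0.08 (95% interval -0.67 to 0.50; limma adjusted p = 0.871).

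**Figure D2:**
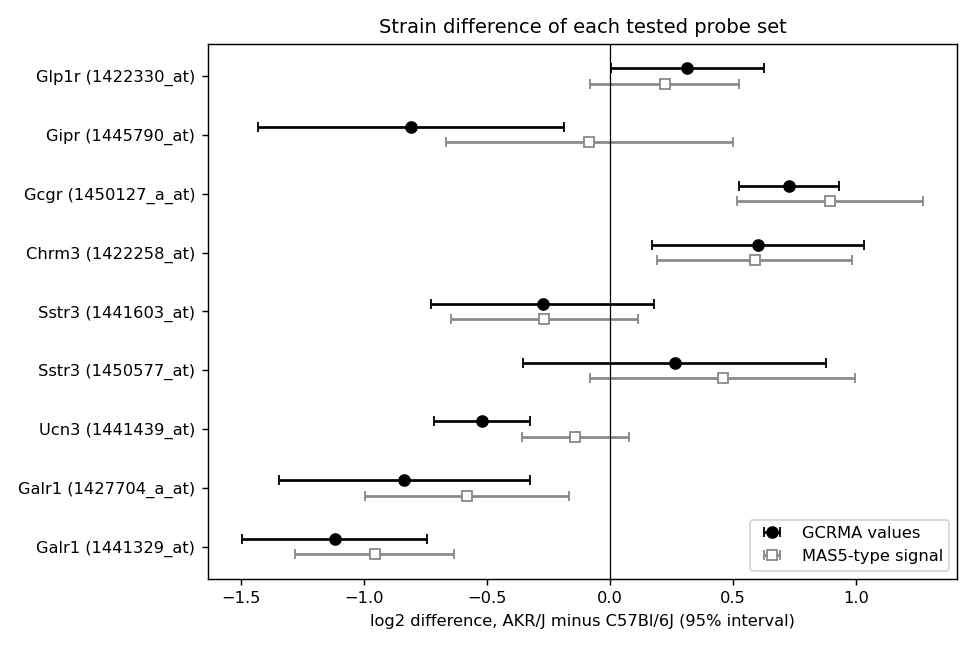
Log2 difference, AKR/J minus C57Bl/6J, of each tested probe set with its 95% interval from the limma fit, for GCRMA values (filled circles) and the MAS5-type signal (open squares). Gcgr is above 0 (0.73 and 0.90) and the brighter Galr1 probe set below 0 (-1.12 and -0.96) by both, whereas Ucn3 (-0.52 and -0.14) and Gipr (-0.81 and -0.08) lie closer to 0 on the MAS5-type signal.

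The muscarinic M3 receptor gene Chrm3 (1422258_at), the Gq-coupled member measured here, was near the limit of detection. It was at 4.95, 4.55, 4.09 and 4.35 in AKR/J, where it was detected on 4 of 4 arrays, against 4.06, 3.79, 4.05 and 3.63 in C57Bl/6J, where it was detected on 1 of 4. The strains did not overlap, though array 3 of AKR/J lay only just above array 5 of C57Bl/6J. The means were 4.48 ± 0.36 on AKR/J arrays and 3.88 ± 0.21 on C57Bl/6J arrays (SD, n = 4 each), and the difference of 0.60 did not pass (95% interval 0.17 to 1.03; limma adjusted p = 0.0691). It passed without array 3, the lowest AKR/J array (0.73, limma adjusted p = 0.0352), but not without any other array (limma adjusted p 0.0896 to 0.147). Chrm3 met the detection filter mainly through AKR/J, and with no detection filter it did not pass (limma adjusted p = 0.175). Its difference on the MAS5-type signal was 0.59 (limma adjusted p = 0.0662). In that signal as deposited the strains overlapped.

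Galr1, a Gi-coupled receptor for the inhibitory neuropeptide galanin, was lower in AKR/J by more than any other called member. By its brightest probe set (1441329_at) it was at 7.18, 7.44, 7.27 and 7.22 in AKR/J, against 8.24, 8.01, 8.80 and 8.53 in C57Bl/6J. The strains were separated by more than the range within AKR/J, and arrays 7 and 8 were the highest. The means were 7.28 ± 0.11 on AKR/J arrays and 8.40 ± 0.34 on C57Bl/6J arrays (SD, n = 4 each), a difference of -1.12 (95% interval -1.50 to -0.74; limma adjusted p = 0.00337), which is 2.17-fold lower in AKR/J. On the MAS5-type signal the means were 159 ± 15.3 on AKR/J arrays and 314 ± 48.9 on C57Bl/6J arrays (SD, n = 4 each; log2 difference -0.96, limma adjusted p = 0.00390). The 3 probe sets of Galr1 did not carry equal weight. A second (1427704_a_at) was at 4.86 ± 0.21 on AKR/J arrays and 5.69 ± 0.46 on C57Bl/6J arrays (SD, n = 4 each; difference -0.84, limma adjusted p = 0.0412), but array 6 at 5.03 lay next to array 1 at 5.00. That call was lost on leaving out any one array except array 6, with limma adjusted p up to 0.105, and on the MAS5-type signal (-0.58; limma adjusted p = 0.0773). It was also lost with no detection filter (limma adjusted p = 0.120) and with further quantile normalization (limma adjusted p = 0.0510). This second probe set was detected on 3 of 4 AKR/J arrays. The third (1450568_at) was not detected on any array and gives no fold.

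The somatostatin receptor gene Sstr3, whose Gi-coupled product sits on primary cilia, had 2 probe sets that pointed in opposite directions, and neither passed. By the brighter (1441603_at) it was at 9.69, 9.56, 9.79 and 9.40 in AKR/J, against 10.24, 10.24, 9.51 and 9.55 in C57Bl/6J. Arrays 5 and 6 lay above all 6 other arrays, and arrays 7 and 8 lay within the range of AKR/J. The means were 9.61 ± 0.17 on AKR/J arrays and 9.88 ± 0.41 on C57Bl/6J arrays (SD, n = 4 each), a difference of -0.27 (95% interval -0.73 to 0.18; limma adjusted p = 0.395), being -0.61 with arrays 1, 2, 5 and 6 alone and 0.063 with arrays 3, 4, 7 and 8 alone. By the dimmer (1450577_at), detected on 3 of 4 AKR/J and 2 of 4 C57Bl/6J arrays, the means were 5.80 ± 0.14 on AKR/J arrays and 5.54 ± 0.59 on C57Bl/6J arrays (SD, n = 4 each), a difference of 0.26 (95% interval -0.35 to 0.88; limma adjusted p = 0.552). The 2 probe sets shared their array pattern in C57Bl/6J, with arrays 7 and 8 below arrays 5 and 6 by 0.71 for the brighter and 1.0 for the dimmer.

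Ucn3, the peptide of mature beta cells, was lower in AKR/J on the GCRMA scale. Its probe set (1441439_at) was at 11.73, 11.77, 11.86 and 11.63 in AKR/J, against 12.27, 12.43, 12.22 and 12.14 in C57Bl/6J. The strains did not overlap, and the arrays of each strain lay within 0.29 of one another. The means were 11.75 ± 0.09 on AKR/J arrays and 12.27 ± 0.12 on C57Bl/6J arrays (SD, n = 4 each), a difference of -0.52 (95% interval -0.71 to -0.32; limma adjusted p = 0.00559). On the MAS5-type signal Ucn3 was at 3264, 3394, 3194 and 3184 in AKR/J, against 3604, 3796, 3501 and 3378 in C57Bl/6J. There array 2 of AKR/J exceeded array 8 of C57Bl/6J, and the difference of -0.14 did not pass (95% interval -0.36 to 0.08; limma adjusted p = 0.389). With each array centred on the mean of the 6 beta cell markers the difference was -0.44 for Ucn3 (limma adjusted p = 0.0210), -1.04 for Galr1 (limma adjusted p = 0.00557) and 0.80 for Gcgr (limma adjusted p = 0.00153).

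The promoter windows of Ucn3 and Gcgr are shown because these genes were called in opposite directions, and that of Glp1r because it is a Gs-coupled relative of Gcgr that was not called. They run from 250 bases before to 50 bases after the RefSeq start in GRCm38.p6, which is a C57BL/6J assembly, so they show that strain's letters only. Windows of 7 of the 9 genes were read, those of Gipr and Galr1 not being used here. Capitals mark E-box matches (CANNTG, the same letters on both strands) and homeodomain cores (TAAT, or ATTA for the other strand), motifs that factors such as Neurod1 and Pdx1 are known to bind. Positions are chr13:3945300-3945599 on the minus strand for Ucn3, chr11:120530477-120530776 on the plus strand for Gcgr and chr17:30901617-30901916 on the plus strand for Glp1r.
Ucn3: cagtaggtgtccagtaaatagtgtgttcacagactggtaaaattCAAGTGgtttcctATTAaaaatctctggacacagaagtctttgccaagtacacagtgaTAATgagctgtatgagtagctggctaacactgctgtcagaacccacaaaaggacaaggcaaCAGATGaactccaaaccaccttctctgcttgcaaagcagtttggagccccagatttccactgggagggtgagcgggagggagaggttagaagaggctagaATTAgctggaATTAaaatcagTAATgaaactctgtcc
Gcgr: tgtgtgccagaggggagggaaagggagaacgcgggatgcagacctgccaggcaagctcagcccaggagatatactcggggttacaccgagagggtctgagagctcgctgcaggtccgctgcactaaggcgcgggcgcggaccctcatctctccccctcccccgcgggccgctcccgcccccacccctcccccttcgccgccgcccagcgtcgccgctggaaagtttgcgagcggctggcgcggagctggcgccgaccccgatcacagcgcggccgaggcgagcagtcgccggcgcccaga
Glp1r: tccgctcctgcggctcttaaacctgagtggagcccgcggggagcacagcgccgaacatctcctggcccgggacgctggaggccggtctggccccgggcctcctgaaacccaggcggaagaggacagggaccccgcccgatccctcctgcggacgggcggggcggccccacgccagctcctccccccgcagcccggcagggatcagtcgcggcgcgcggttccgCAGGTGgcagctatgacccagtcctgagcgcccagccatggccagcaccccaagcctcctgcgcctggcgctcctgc
The Ucn3 window held 5 homeodomain cores and 2 E-boxes, the Gcgr window held neither motif, and the Glp1r window held 1 E-box and no homeodomain core. Of 32851 RefSeq promoter windows of this length, 58.0% hold the homeodomain core and 72.3% hold an E-box. The Ucn3 window was 44.7% G and C with 1 CG dinucleotide, against a median over all windows of 52.7% and 7. The Gcgr window was 71.7% G and C with 34 CG dinucleotides, and the Glp1r window 73.7% with 29. None of the 3 windows held the cAMP response element TGACGTCA, read the same on both strands, which 1.79% of all windows hold. These matches describe letters in a window and were not tested against the strain differences.

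Within C57Bl/6J, Glp1r, Gipr and Sstr3 differed between pairs of arrays by as much as the strains did. In AKR/J, arrays 3 and 4 differed from arrays 1 and 2 by -0.05 for Glp1r, 0.04 for Gipr and -0.06 for Galr1 (1441329_at). In C57Bl/6J, arrays 7 and 8 differed from arrays 5 and 6 by -0.48 for Glp1r, -1.03 for Gipr and 0.54 for Galr1. Gcgr and Ucn3 moved little between these pairs, at -0.11 and -0.01 in AKR/J, against 0.02 and -0.17 in C57Bl/6J. No label names this division, which was known from earlier results of these data. The share of detected probe sets was 46.4% and 45.7% on arrays 7 and 8 and 48.1% and 48.0% on arrays 5 and 6, and its part in these values was not tested. The SD was larger in C57Bl/6J than in AKR/J for 8 of the 9 tested probe sets, Chrm3 being the exception, and for 56.9% of all tested probe sets.

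**Figure D3:**
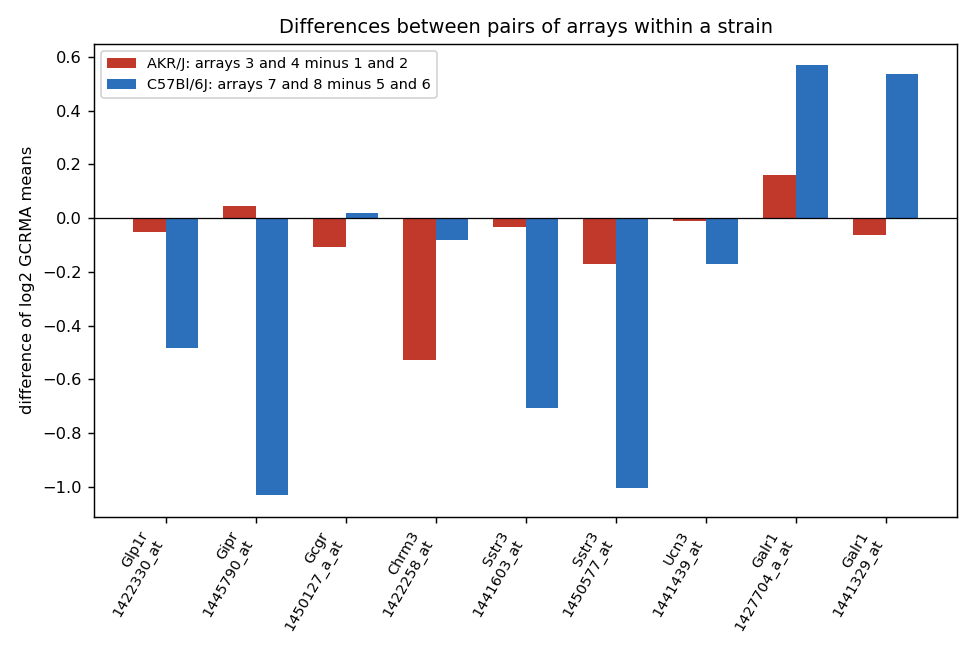
Difference of mean log2 GCRMA intensity between pairs of arrays within a strain: arrays 3 and 4 minus 1 and 2 in AKR/J (red, left) and arrays 7 and 8 minus 5 and 6 in C57Bl/6J (blue, right), for each tested probe set. In C57Bl/6J the values run from -1.03 for Gipr to 0.57 for the dimmer Galr1 probe set, and in AKR/J the furthest from 0 is Chrm3 at -0.53.

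The genes whose pattern over all 8 arrays was most like that of each member are given by Pearson's r of log2 values, to which the strain difference itself contributes and in which all genes share the same 8 arrays. Ucn3 ran most closely with Arhgap26 (r = 0.991) and Atp4a (0.989), Galr1 with Mios (0.992) and Depdc7 (0.987), and Gcgr with Mtmr7 (0.985) and Ift140 (0.983). For members without a strain call the nearest patterns were Tmem62 (0.972) and Pafah1b2 (0.968) for Glp1r, Srsf6 (0.985) and Cnn3 (0.984) for Gipr, Tsc2 (0.987) and Zc3h7a (0.986) for Sstr3, and Pgm2 (0.992) and Golga3 (0.990) for Chrm3. With each strain's mean taken out, r was 0.794 and 0.845 for the genes nearest Gcgr and between 0.905 and 0.985 for those nearest the other 6 genes. All were picked from the tested genes by the highest r on these same arrays. High values, also with strain means taken out, follow in part from that choice and are no test of a link.

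The ligands of these receptors and the enzymes that make or cut them were compared next, each gene by its brightest probe set and with p-values adjusted over the 10891 genes. Of 10 tested genes, 1 was higher in AKR/J, 3 were lower and 6 did not pass, where 8.48% of all tested genes were higher and 9.14% lower. Gal, which encodes galanin, the ligand of Galr1, was at 3.08, 3.09, 3.07 and 3.09 in AKR/J, against 6.70, 6.66, 6.27 and 6.42 in C57Bl/6J. It was low on every AKR/J array and detected on 2 of those 4, so its AKR/J level lay near background. It passed as lower in AKR/J (limma adjusted p = 1.40e-06), but with one side near background the size of the difference is not a measured fold and none is given. The galanin gene and its receptor gene Galr1 were both lower in AKR/J.

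Th, the tyrosine hydroxylase gene needed for catecholamine synthesis, was at 9.43, 9.50, 9.54 and 9.28 in AKR/J, against 6.98, 6.63, 6.77 and 7.05 in C57Bl/6J. All AKR/J arrays were far above all C57Bl/6J arrays, by 5.98-fold on the means (limma adjusted p = 8.09e-06). Dpp4, the protease that inactivates GLP-1 and GIP, was at 7.84, 7.43, 7.43 and 7.56 in AKR/J, against 8.95, 9.14, 8.76 and 8.16 in C57Bl/6J. Its arrays did not overlap between strains, it was 2.28-fold lower in AKR/J (limma adjusted p = 0.00690), and its other 2 tested probe sets gave differences of -1.38 and -1.39. The neuropeptide gene Npy, named after its values were seen, was also lower (-0.43; limma adjusted p = 0.0342). Glucagon and somatostatin, the ligands of Gcgr and Sstr3, did not pass, with differences of 0.01 (95% interval -0.16 to 0.17; limma adjusted p = 0.951) for Gcg and 0.06 (95% interval -0.13 to 0.24; limma adjusted p = 0.653) for Sst. Cck, singled out after its values were seen, varied widely in AKR/J, at 4.62 ± 1.64 on AKR/J arrays and 2.46 ± 0.01 on C57Bl/6J arrays (SD, n = 4 each), and did not pass (limma adjusted p = 0.0718).

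Few other receptors of the same families reached the detection filter, 4 of 20 with a probe set. Ffar2, a short-chain fatty acid receptor, was at 8.58 ± 0.07 on AKR/J arrays and 8.07 ± 0.25 on C57Bl/6J arrays (SD, n = 4 each), and its difference of 0.51 passed (limma adjusted p = 0.0261). The call of Ffar2 was lost without array 1, 3, 4 or 6, with limma adjusted p up to 0.0683, on the MAS5-type signal (limma adjusted p = 0.0555) and with no detection filter (limma adjusted p = 0.0519). Vipr1, Sstr2 and Crhr1 did not pass.

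**Figure D4:**
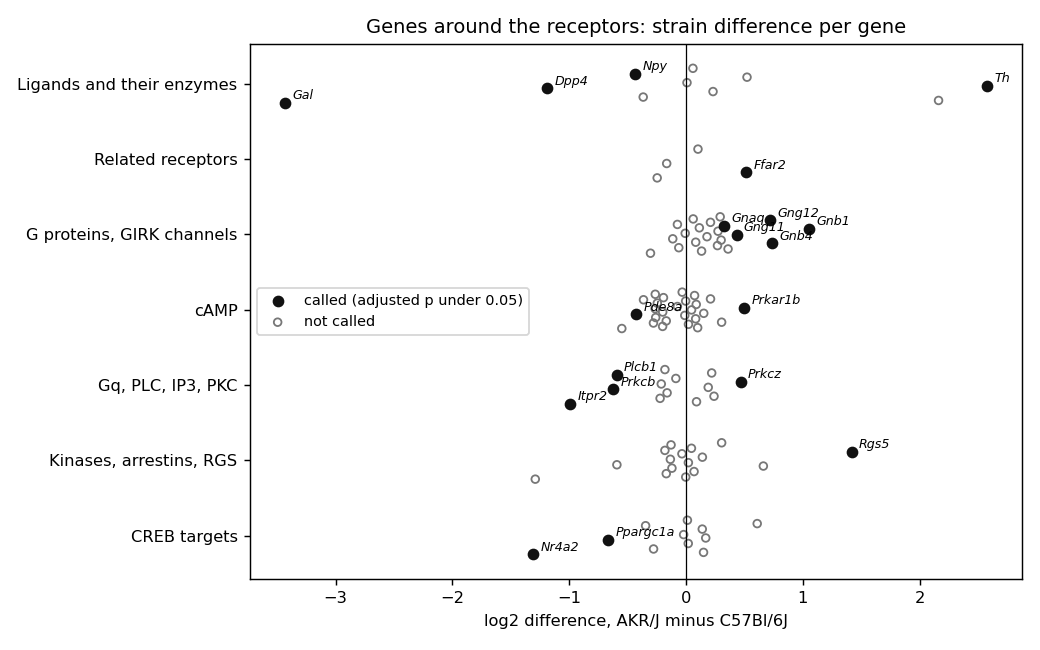
Log2 difference, AKR/J minus C57Bl/6J, of each tested gene in the 7 lists around the receptors (1 point per gene by its brightest probe set; filled where the limma adjusted p was under 0.05 and named, open otherwise; height within a row has no meaning). Th lies at 2.58, the position of Gal rests on an AKR/J level near background, and the 5 called G protein genes are all to the right of 0.

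Among G protein subunits and G protein-gated potassium channels, 5 of 21 tested genes passed as higher in AKR/J and 0 as lower, where 8.48% of all tested genes were higher and 9.14% lower, and the list median was 0.21 against 0.00012 for all genes. The count of higher genes was 2 without array 1, 2 or 4 and 3 without array 3, and the MAS5-type signal gave 3 higher and 1 lower. Of all 10891 genes, 660, 666 and 627 were called higher without array 1, 2 or 4 and 824 without array 3, against 924 with all arrays. The MAS5-type signal called 687 of all genes higher and 702 lower. Gnb1, a beta subunit shared by Gs, Gi and Gq, was at 10.92, 10.55, 10.64 and 10.50 in AKR/J, against 9.48, 9.62, 9.57 and 9.74 in C57Bl/6J. The strains were well apart, by 2.07-fold (limma adjusted p = 5.42e-04), and a second probe set was 1.42-fold higher. The beta subunit gene Gnb4 was 1.67-fold higher (limma adjusted p = 0.00513), and Gnaq, the alpha subunit through which M3 signals, 1.25-fold higher (limma adjusted p = 0.0244). Gnaq had 1 other probe set of 5 that passed, and its call was lost without array 1, 2 or 4 (limma adjusted p up to 0.0657). On the MAS5-type signal neither Gnaq (limma adjusted p = 0.132) nor Gnb4 (limma adjusted p = 0.0793) passed, and Gnaq also did not pass with arrays centred on beta cell markers (limma adjusted p = 0.0545) or with the mean of its probe sets (limma adjusted p = 0.0564). The gamma subunit genes Gng11 and Gng12, named after their values were seen, were the other two. Gnas, the Gs alpha subunit of the incretin receptors, did not pass (0.21; 95% interval -0.01 to 0.43; limma adjusted p = 0.178).

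Of 26 cAMP genes, 1 was higher, 1 was lower and 24 did not pass, with a median of -0.05, where 17.6% of all tested genes were called. Pde8a, a cAMP phosphodiesterase, was at 8.72 ± 0.02 on AKR/J arrays and 9.15 ± 0.09 on C57Bl/6J arrays (SD, n = 4 each; difference -0.43, limma adjusted p = 0.00356), a call lost on the MAS5-type signal (limma adjusted p = 0.0650) and with arrays centred on beta cell markers (-0.35; limma adjusted p = 0.0520). Prkar1b, a regulatory subunit of protein kinase A, was 1.41-fold higher by its brightest probe set (limma adjusted p = 0.00440), while its other 4 tested probe sets gave 0.12 to 0.26 and did not pass. The Prkar1b call was lost with the mean of its probe sets (0.24; limma adjusted p = 0.123) and without those ending in _x_at or _s_at (0.12; limma adjusted p = 0.579).

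In the Gq arm, 1 of 13 genes was higher, 3 were lower and 9 did not pass, where 8.48% of all tested genes were higher and 9.14% lower. Itpr2, a calcium-release channel opened by IP3, was 1.99-fold lower in AKR/J (limma adjusted p = 0.00705), a call lost without probe sets ending in _x_at or _s_at (-0.73; limma adjusted p = 0.124). It was followed by the protein kinase C gene Prkcb (1.54-fold lower, limma adjusted p = 0.0120) and the phospholipase C gene Plcb1 (1.51-fold lower, limma adjusted p = 0.0133). On the MAS5-type signal Prkcb did not pass (limma adjusted p = 0.0520). Prkcz, named after its values were seen, was higher by 0.47 (limma adjusted p = 0.0295). Macrophage marker sums were lower on the same AKR/J arrays, at 989 to 1282 in AKR/J, against 2202 to 3116 in C57Bl/6J, and their part in the Prkcb value was not tested.

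Of 16 genes of receptor desensitization, where 17.6% of all tested genes were called, Rgs5 alone passed. This regulator of G protein signalling, also a pericyte marker, was at 12.27, 12.17, 12.20 and 12.28 in AKR/J, against 10.64, 10.84, 10.94 and 10.84 in C57Bl/6J, or 2.67-fold higher (limma adjusted p = 2.55e-05). Its 4 tested probe sets gave differences of 1.42 or more, all higher in AKR/J. The other pericyte markers did not pass, with differences of 0.04 for Acta2 (limma adjusted p = 0.961) and 0.35 for Pdgfrb (limma adjusted p = 0.241). The pericyte marker sum, which includes Rgs5 itself, was 5601 to 6329 in AKR/J, against 2632 to 4133 in C57Bl/6J. The part of pericyte content in the Rgs5 value was not tested.

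Of 11 genes induced through cAMP and CREB, 2 were lower in AKR/J and 0 were higher, or 18.2% called, near the share of all genes. The nuclear receptor gene Nr4a2 was at 6.29 ± 0.31 on AKR/J arrays and 7.60 ± 0.49 on C57Bl/6J arrays (SD, n = 4 each; difference -1.31, limma adjusted p = 0.0112). The other tested probe sets of Nr4a2 gave differences of -1.48, -0.60 and -0.32, the last not passing (limma adjusted p = 0.101). The coactivator gene Ppargc1a was lower by a difference of -0.67 (limma adjusted p = 0.0467), a call lost without array 1, 2, 4, 6, 7 or 8 (limma adjusted p up to 0.104), and it was detected on 1 of 4 AKR/J arrays. Ppargc1a also did not pass under 6 other planned settings, both other detection filters, the MAS5-type signal and the 3 further scalings (limma adjusted p 0.0533 to 0.126). Over the 7 lists together, 10 of 101 tested genes passed as higher in AKR/J and 9 as lower, 18.8% in all, which is near the 17.6% of all genes.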

How the data were processed

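Islet RNA of 4 AKR/J and 4 C57Bl/6J pools was profiled on Affymetrix arrays, and the title of each sample gives its strain. The value table deposited by the authors holds linear intensity values; the submitters' processing notes name GCRMA, with no version given in the sources used here. GCRMA corrects background by probe sequence and normalizes across arrays. The per-array files hold, per the file headers, a MAS5-type intensity signal with the p-value of its detection call.

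Of 45101 probe sets, 64 controls were left out. Platform annotation names 1 gene for 34945, several for 932 and none for 9160. Log2 GCRMA values of the 20772 probe sets detected (p under 0.05) on at least 4 of 8 arrays were fitted for strain with limma 3.58.1 (lmFit, eBayes) in R 4.3.3, with Benjamini-Hochberg adjustment over all of them. Gene counts take the brightest tested probe set of each of 10891 genes and adjust over genes. Where AKR/J and C57Bl/6J differ in sequence under a probe, its signal can shift although transcript levels are equal. Figures used Python 3.11.15 with matplotlib 3.10.9.

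Members and lists were chosen with earlier results of these data known. Named genes are all members, up to 3 called genes per list (smallest adjusted p first) and the 2 genes most like each member. Alternatives were other filters, the MAS5-type signal (floored at each array's 5th percentile and quantile-normalized as log2), further normalization, other variance models and weights, other probe set choices, a term for arrays 1, 2, 5 and 6 against the rest, and arrays left out in turn. In data simulated for 20772 probe sets with independent noise, 67 were changed 1.5-fold, 67 were changed 2-fold and 66 were changed 4-fold. The fit found 37.3%, 85.1% and 95.5% of these, with 10 false calls. In the real data 14.3% of probe sets were called, far more than were changed in the simulation, so these shares need not carry over.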

Additional observations from a re-analysis of the deposited data

Results flagged for a closer look

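For Galr1, the probe set that was not detected on any array (1450568_at) had 1 AKR/J array, array 2, apart from the other 3, at a log2 value of 2.13 against 1.88 for the others. The gap was 0.990 of the range of the 4 AKR/J arrays. It was the 1 such array among 20 groups of 4 examined for the member probe sets on the GCRMA scale, where chance gives about 1 in 20.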

How the results depend on the processing

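No paired analysis was possible because the titles number the samples 1 to 8 and the strains share no number. Among the planned settings, the counts of called member probe sets (4), member genes (3) and pathway genes (19) stayed within 1.5 times, with 2 exceptions. The MAS5-type signal called 2 member probe sets, and the term for arrays 1, 2, 5 and 6 against the rest called 5 member genes. Of all 10891 genes, the MAS5-type signal called 1389 and the term for arrays 2391, against 1919 in the main fit. With the term for arrays, Gipr (-0.81, limma adjusted p = 0.0443) and Chrm3 (0.60, limma adjusted p = 0.0428) passed, while calls rose over all genes too. With the MAS5-type signal Ucn3 no longer passed (-0.14). Within the 1.5 times margin, centring on array medians, centring on beta cell markers and array weights each called 4 member genes. These settings called 2010, 1689 and 2019 of all genes, in that order. Leaving out each array gave 3 to 4 member probe sets, 3 to 4 member genes and 13 to 19 pathway genes, with 1326 to 1781 of all genes called. It gave differences of -1.01 to -0.59 for Gipr, 0.45 to 0.73 for Chrm3, 0.67 to 0.78 for Gcgr, -0.56 to -0.46 for Ucn3 and -1.25 to -0.99 for Galr1, the last 3 past the threshold each time. Settings chosen after seeing the data used 2 arrays per strain. Arrays 1, 2, 5 and 6 alone called 1 member probe set, 1 member gene and 9 pathway genes, with differences of -1.35 for Gipr (passed), 0.79 for Gcgr, -0.60 for Ucn3 and -0.82 for Galr1 (none of these 3 passed), and -0.15 for Sstr3 by probe set 1450577_at (reversed). Arrays 3, 4, 7 and 8 alone called 2 member probe sets, 1 member gene and 4 pathway genes. The differences there were 0.66 for Gcgr, -0.44 for Ucn3 and -0.27 for Gipr (none passed) and 0.063 for Sstr3 (reversed). Over all genes these fits called 628 and 277 genes, against 1919 with 8 arrays. Fewer arrays entered them; other causes were not tested. Signals near background limit Gipr, Chrm3 and Gal.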
